A study of Homo sapiens with 12 samples.

Results

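ANGPTL4, the gene of angiopoietin-like 4, was followed across 12 RNA sequencing libraries of EA.hy926 cells as 1 of 51141 gene symbols in the deposited count table and 1 of 14447 genes with enough counts to be tested. It was chosen by its measured values, the increase in hypoxia against control and the smaller increase in cells given TEPA, so its own values in all 4 groups are given as a description, with no test. EA.hy926 is a permanent human line, a hybrid of endothelial cells from the umbilical vein and A549 lung carcinoma cells. The groups, of 3 libraries each, were TEPA+hypoxia, hypoxia, TEPA and control. TEPA+hypoxia cells had the copper chelator TEPA (tetra-ethylene-pentamine) at 50 µM for 16 h and then 8 h in 1% oxygen. Hypoxia cells had the 8 h in 1% oxygen with no chelator, TEPA cells had the chelator and then 8 h at normal oxygen, and control cells had neither. The series asks how copper bears on transcription by HIF-1, the transcription factor that drives much of the response to low oxygen. The labels do not say whether the libraries of a group came from separate cultures, so a p-value here measures only the spread between these libraries. In bulk RNA a smaller share of expressing cells and less RNA per cell cannot be told apart.

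ANGPTL4 is a secreted glycoprotein that inhibits lipoprotein lipase, the enzyme that releases fatty acids from circulating triglycerides, and its C-terminal domain is shed by proprotein convertases and acts on endothelial and tumour cells. Its gene is a known target of the hypoxia-inducible factors and of the PPAR nuclear receptors, and it is also induced by glucocorticoids. HIF transcription factors bind a short core motif in DNA once low oxygen has stopped the degradation of their alpha subunits.

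The gene lies on chromosome 19, plus strand, from 8363289 to 8374373 in GENCODE 29 on GRCh38 (ENSG00000167772.11). Its longest coding transcript, ENST00000301455.6, has 7 exons and 1879 nt and encodes 406 amino acids. That transcript holds 63.3% G and C, a property that matters below, since counts varied with base composition. The trend over genes was strongest in hypoxia 2 and 3, with control 3 close behind. The 300 bases around the RefSeq start, 250 before it and 50 after, are shown because the hypoxia-inducible factors act through promoters of this kind. They lie at chr19:8363905-8364204 of GRCh38.p14, plus strand, and are credited to RefSeq. In capitals are the HIF core and the TATA box, and the rest is in lower case.
ANGPTL4 promoter: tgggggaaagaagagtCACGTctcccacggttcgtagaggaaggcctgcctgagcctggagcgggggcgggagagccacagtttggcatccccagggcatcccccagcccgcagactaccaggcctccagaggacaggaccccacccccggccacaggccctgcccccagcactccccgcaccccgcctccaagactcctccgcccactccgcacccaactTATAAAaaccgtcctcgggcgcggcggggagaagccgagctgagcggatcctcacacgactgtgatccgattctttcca
The search was for ACGTG and GCGTG, the forms of the HIF core, on both strands, and for TATAAA on the gene strand, and none of the matches overlapped. ACGTG occurred once, on the minus strand (printed as CACGT), with its first printed base at position -234 from the start. GCGTG did not occur in these bases. TATAAA began at position -29. Of 35116 promoters of the same length, 21.4% held ACGTG, 36.5% held GCGTG, 48.4% held either form and 7.3% held TATAAA. A match describes the letters only and is not a bound site.

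Library totals ran from 13406858 counts in hypoxia 3 to 24778944 in TEPA 1, and 3 counts in a library corresponded to 0.118 to 0.267 CPM (counts per 1e6 of a library total that was multiplied by its TMM scaling factor). The libraries hypoxia 2 and hypoxia 3 lay away from the other 10. Their scores on the first principal component were 126 and 105, against 11.8 in hypoxia 1 and -51.6 to -8.95 elsewhere, and their TMM factors were 0.772 and 0.838, against 1.03 to 1.08. Epithelial markers (10 genes, 4 of them tested, CDH1 and ESRP1 listed at 0) summed to 18185 and 15539 CPM in hypoxia 2 and 3, against 7690 CPM in hypoxia 1 and 5440 to 7417 CPM in the other groups. Endothelial markers (13 genes, 11 tested, CLDN5 and EMCN listed at 0) summed to 6801 and 6083 CPM in those libraries, 3907 CPM in hypoxia 1 and 3411 to 4063 CPM elsewhere. The part of these differences in the ANGPTL4 values was not tested, so the main results on the hypoxia group are also given without hypoxia 2 and 3. That fit keeps only hypoxia 1 in its group, so its calls there rest on the spread of the other groups and are no check. Calls from the main fit use a spread shared by all 4 groups. A fit of only hypoxia and control called 0 genes (edgeR quasi-likelihood test over all genes, smallest adjusted p = 0.0582). Adipocyte markers, of interest because fat is a main source of ANGPTL4, summed to 11.6 to 35.9 CPM with ADIPOQ, LEP and LPL listed at 0, and hepatocyte markers to at most 0.22 CPM. A listing at 0 is not read as silence, since HK1 had 0 counts and CANX 4 in the whole table.

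ANGPTL4 was expressed in every library and was highest in hypoxia, intermediate in TEPA+hypoxia, and low and alike in TEPA and control. It had 5950, 6303 and 5739 counts in TEPA+hypoxia 1 to 3, or 347, 359 and 317 CPM. In hypoxia 1 to 3 it had 8041, 15266 and 12055 counts, or 520, 1122 and 1074 CPM. At normal oxygen it had 3174, 2050 and 1782 counts (124, 119 and 106 CPM) in TEPA 1 to 3, and 2695, 1945 and 2121 counts (124, 110 and 123 CPM) in control 1 to 3. Every low-oxygen library lay above every normal-oxygen library, and every hypoxia library lay above every TEPA+hypoxia library. TEPA and control overlapped. The means were 341 ± 21.8 CPM in TEPA+hypoxia, 905 ± 334 in hypoxia, 116 ± 9.57 in TEPA and 119 ± 7.61 in control (SD, n = 3 each). The coefficient of variation was 36.9% in hypoxia and 6.39% to 8.24% in the other groups, so the hypoxia mean is the least certain of the 4. Hypoxia 1 sat closer to the TEPA+hypoxia libraries than to hypoxia 2 and 3. In the order of counts within a library, ANGPTL4 stood at place 405, 385 and 474 in TEPA+hypoxia and at 267, 164 and 149 in hypoxia. It stood between 1676 and 1974 in TEPA and between 1661 and 1914 in control.

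**Figure D1:**
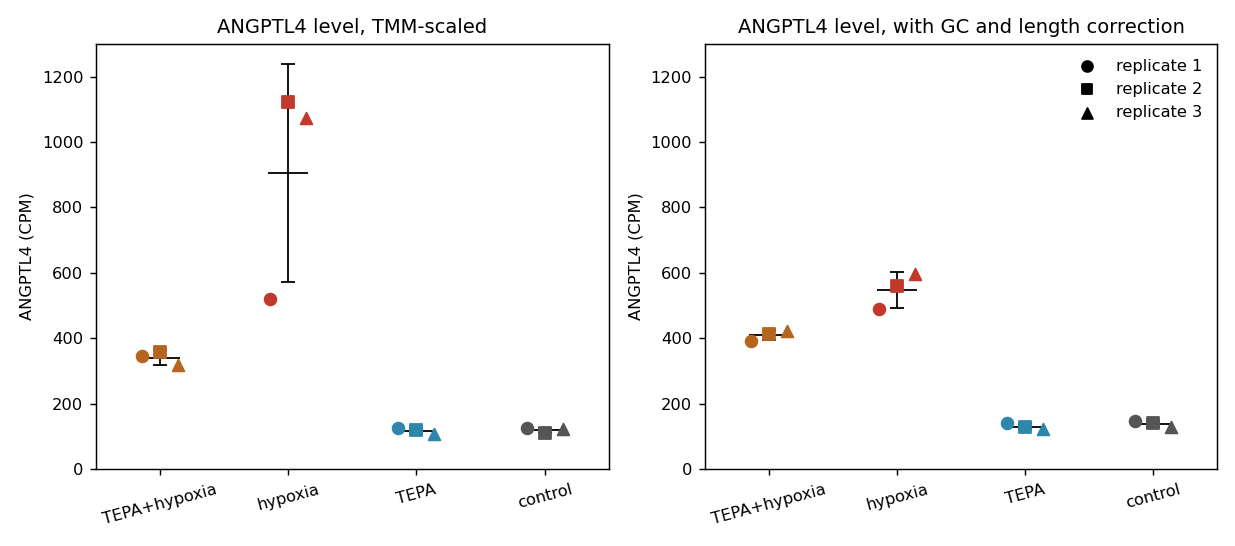
ANGPTL4 in each library (CPM, linear axis from 0) by group, on the left scaled by TMM and on the right after correction for GC content and transcript length. Symbols mark replicates, and the horizontal line and bar give the mean and SD of 3 libraries. On the left the hypoxia libraries spread from 520 to 1122 CPM, while on the right they lie close together above the TEPA+hypoxia libraries.

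ANGPTL4 was higher under low oxygen in cells that had been given the chelator. The level reached 317 to 359 CPM in TEPA+hypoxia, against 106 to 124 CPM in TEPA, with no overlap, a log2 fold change of 1.55 ± 0.23 (SE), or 2.93-fold. Of the genes tested, 0.0623% were called higher in this comparison (edgeR quasi-likelihood test, adjusted p under 0.05 over all genes), and 12.5% were higher with no overlap between the libraries. Since these values were part of the choice of ANGPTL4, nothing is read from those shares for it. Hypoxia 2 and 3 enter this fit only through the shared spread, scaling and filter, and without them it gave 1.57 ± 0.08. The log2 fold change lay between 1.49 and 1.60 in the 12 fits without 1 library.

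At normal oxygen the levels of ANGPTL4 with and without TEPA overlapped, with 106 to 124 CPM in TEPA and 110 to 124 CPM in control. The log2 fold change of TEPA against control was -0.04 ± 0.22. Without hypoxia 2 and 3 the SE was 0.08 around the same -0.04. No gene at all was called in this comparison by edgeR (0%, with 289 genes at an unadjusted p under 0.05) or by limma-voom, and 6 were called by DESeq2.

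In hypoxia against control, ANGPTL4 had 520 to 1122 CPM in hypoxia and 110 to 124 CPM in control, a log2 fold change of 2.93 ± 0.24, or 7.6-fold. Among the 10121 genes with a mean of at least 5 CPM that was the first place, and it stayed the first without hypoxia 2 and 3, at 2.13. The next were C4orf48 at 2.66, the thymidine phosphorylase gene TYMP at 2.45, the small nucleolar RNA host gene SNHG19 at 2.42, RN7SL1, an RNA of the signal recognition particle, at 2.36, and CCDC85B at 2.32. Over all 14447 genes it came 4th, after A1BG (3.17), RMRP (3.10) and SPACA6P-AS (3.04), which averaged 0.684, 0.725 and 2.21 CPM and are named here after their values were seen. Without hypoxia 2 and 3 it came 24th of 15195 genes. The place thus holds for fold change among genes of moderate or high count and not for the size of the gain. The gain of 786 CPM was the 68th largest and, per kb of transcript, the 94th of 9872 genes, while GAPDH gained 6751 CPM and the keratin gene KRT7 gained 4807 CPM.

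The genes next to ANGPTL4 in that order had negative fold changes with TEPA, apart from RN7SL1. In TEPA+hypoxia against TEPA, C4orf48 stood at -0.43, TYMP at -0.30, SNHG19 at -0.15 and CCDC85B at -0.28, and none of them was called, nor was RN7SL1. ANGPTL4 was second of 10121 genes there, behind the small nuclear RNA gene RN7SK at 1.99. DDIT4, which encodes an inhibitor of mTOR signalling, followed at 1.44, the splicing kinase gene CLK1 at 1.35, LOC105370496 at 1.35 and RN7SL1 at 1.28. The gain in CPM, 225, was the 11th largest, after genes such as HSP90AA1, a chaperone gene (799 CPM), and PLOD2, a collagen lysyl hydroxylase (638 CPM), and it was the 7th per kb. Of the 4254 genes called higher in hypoxia against control (29.4% of those tested), 1218 (28.6%) had a positive fold change in TEPA+hypoxia against TEPA, with a median of -0.13. Over all 14447 genes 7333 were positive there, with a median of 0.00. Among the 3393 called genes with at least 5 CPM, ANGPTL4 had the largest fold change with TEPA. Without hypoxia 2 and 3 the called set was 43 genes (0.283%), of which 86.0% had a positive fold change with TEPA (median 0.37). ANGPTL4 was second in that set, which rests on hypoxia 1 alone and on the spread of the other groups. Over all 15195 genes of that fit, 8151 were positive with TEPA (median 0.02).

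Library by library, the first place was not equally firm. Set against the control mean, ANGPTL4 was 2.13 higher on the log2 scale in hypoxia 1, 3.24 in hypoxia 2 and 3.17 in hypoxia 3, which placed it 1st, 2nd and 1st of 10121 genes. Against the TEPA mean it was 1.58, 1.63 and 1.45 higher in TEPA+hypoxia 1 to 3, in places 1, 1 and 9. Hypoxia 2 and 3 carried the strongest trend with base composition. Across genes, the Spearman correlation between the change from the control mean and GC content was 0.379, 0.521 and 0.545 in hypoxia 1 to 3 and lay between -0.438 and 0.483 in the others (13077 genes, which share library and depth within each value). Splines on GC content and transcript length, fitted in each library over all genes, assigned -0.02, -0.04 and -0.25 of the change of ANGPTL4 to these properties in TEPA+hypoxia 1 to 3, and 0.31, 1.22 and 1.07 in hypoxia 1 to 3. What remained was 1.60, 1.67 and 1.70 in TEPA+hypoxia 1 to 3 and 1.82, 2.01 and 2.11 in hypoxia 1 to 3. The corrected changes placed ANGPTL4 1st, 1st and 5th of 9872 genes in TEPA+hypoxia 1 to 3, and 1st, 90th and 30th in hypoxia 1 to 3. The corrected changes in hypoxia lay much closer together than the uncorrected ones, and the groups still did not overlap. With this correction ANGPTL4 was 23rd of 9872 genes in hypoxia against control and 2nd in TEPA+hypoxia against TEPA, and with hypoxia 2 and 3 also left out it was 1st in hypoxia against control. With correction for GC content alone, chosen after seeing the data, it was 5th and 2nd.

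The rise with TEPA was smaller than the rise without it, and by how much depended on the processing. TEPA+hypoxia stood 1.41 ± 0.23 below hypoxia on the log2 scale, with 317 to 359 CPM in TEPA+hypoxia and 520 to 1122 CPM in hypoxia. The response with TEPA minus the response without it was -1.37 ± 0.32. In other terms, TEPA-treated cells kept 53% of the log2 rise and 28.6% of the gain in CPM, 225 CPM with TEPA and 786 CPM without. Measured against hypoxia 1 alone the kept share of the CPM gain was 56%, against hypoxia 2 alone 22.4% and against hypoxia 3 alone 23.5%. The difference between responses was -0.56 ± 0.14 without hypoxia 2 and 3 (73.6% of the log2 rise kept), a fit in which the lone hypoxia library is assumed to vary like the other groups. It was -0.62 ± 0.16 with correction for GC content alone (72.7% kept) and -0.34 ± 0.12 with correction for GC content and length (83.1% kept). With both that correction and the 2 libraries left out it was -0.17 ± 0.10 (90.5% kept). The sign was the same in every one of these fits. They reuse the same libraries, and ANGPTL4 was chosen partly for this difference, so nothing is read from the sign. The value in TEPA+hypoxia against TEPA moved little (1.55 to 1.66), so nearly all of the spread came from hypoxia against control (1.83 to 2.93).

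**Figure D2:**
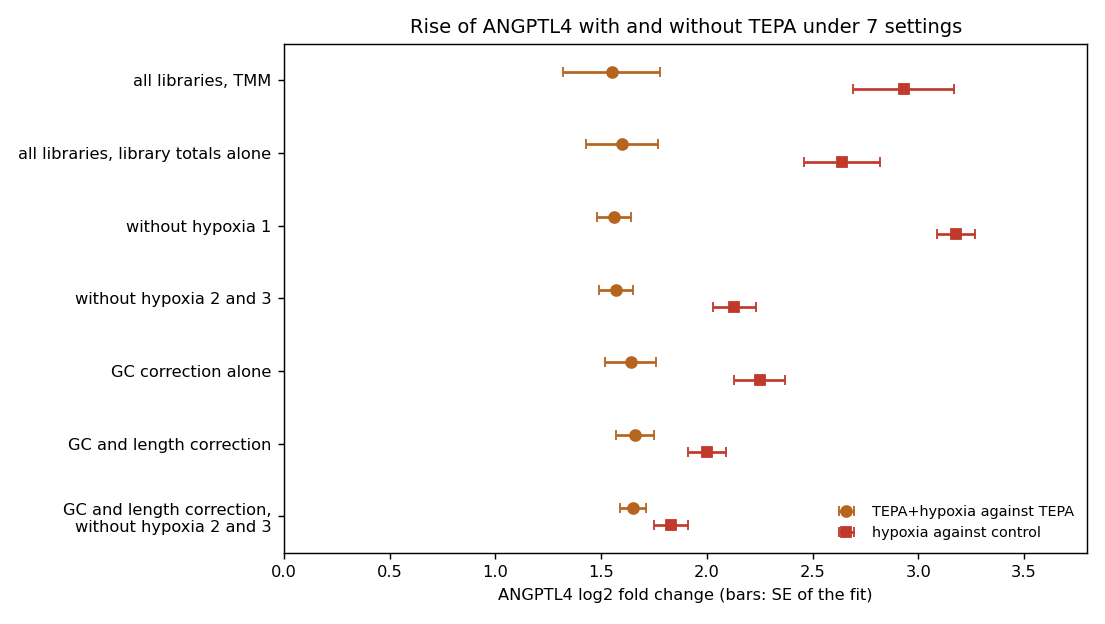
Log2 fold change of ANGPTL4 in TEPA+hypoxia against TEPA (circles) and hypoxia against control (squares) under 7 settings of the same edgeR fit, with the SE as bars. The circles stay between 1.55 and 1.66, while the squares run from 3.18 without hypoxia 1 to 1.83 with correction for GC content and length and without hypoxia 2 and 3.

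ANGPTL4 lay above all 39 tested members of a list of HIF target genes in both comparisons. It was chosen for its rise under low oxygen, so nothing is read from that place. The list had 47 other genes, of which 46 were in the table. In TEPA+hypoxia against TEPA, 2 of the 39 were called higher and 0 lower (edgeR over all genes, against 0.0623% and 0.0346% of all genes, 0.0969% in either direction), 28 had a positive fold change, and the median was 0.26, against 0.00 over all genes. DDIT4 had 21.5, 23.4 and 20.4 CPM in TEPA+hypoxia, against 8.35, 8.56 and 7.06 CPM in TEPA (log2 1.44 ± 0.20, adjusted p = 0.0197). The enolase gene ENO2 had 23.1, 22.7 and 18.8 CPM in TEPA+hypoxia, against 11.5, 12 and 11.4 CPM in TEPA (0.89 ± 0.14, adjusted p = 0.0403). Neither gene overlapped between the groups. The glucose transporter gene SLC2A1 was at 0.67 (adjusted p = 0.0824), the transcriptional repressor gene BHLHE40 at 0.93 (adjusted p = 0.237) and VEGFA, the main vascular growth factor, at 0.66 (adjusted p = 0.353). In the fit that leaves out hypoxia 2 and 3, 12 were called higher and 1 lower (1.32% and 0.842% of all genes). SLC2A1, BHLHE40 and VEGFA were among the higher ones, and the lower one was CITED2, which competes with HIF for its coactivators.

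In hypoxia against control 17 of the 39 were called higher and 4 lower, beside 29.4% and 27.8% of all genes (57.2% in either direction), with a median of 0.27 against -0.01 over all genes. The share called higher was above the background and the share called lower below it. The 4 lower ones, named after their values were seen, were PFKFB3 (-3.04), CITED2 (-0.78), LOX (-0.49) and WSB1 (-0.41). The mitophagy receptor gene BNIP3 had 89.7, 91.0 and 90.8 CPM in hypoxia, against 50.6, 49.8 and 52.5 CPM in control, a narrow spread over the same libraries in which ANGPTL4 ran from 520 to 1122 CPM. ADM, the gene of the vasodilator adrenomedullin, had 95.0, 111 and 119 CPM in hypoxia, against 51.0, 41.3 and 56.7 CPM in control. Both were called in the main fit (BNIP3 0.83, adjusted p = 0.00221, and ADM 1.13, adjusted p = 0.00507). The fit of only hypoxia and control called 0 genes. Without hypoxia 2 and 3, where hypoxia 1 stands alone, BNIP3 was at 0.81 and ADM at 0.93. HILPDA, a lipid droplet protein gene that is also a HIF target, was at 0.27 (adjusted p = 0.0803). With correction for GC content and length, 28 of the 39 were called higher and 2 lower, beside 3516 and 2266 of 13077 genes. Without hypoxia 2 and 3, 33 of the 39 had a positive fold change, with a median of 0.32. Over all 15195 genes of that fit 7564 were positive.

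As a log2 difference, the weakening with TEPA was larger for ANGPTL4 than for nearly all of these genes in the uncorrected values. Such a difference can be larger where the rise is larger, and ANGPTL4 had the largest rise here. Over the 10121 genes of at least 5 CPM its difference was the 744th most negative. Of the 3393 of these called higher in hypoxia against control, 81 kept more of the log2 rise than its 53%. The median share kept was -18%. ANGPTL4 was chosen partly for this difference, so nothing is read from its place. The response with TEPA was smaller than the response without it in 18 of the 39 and larger in 21, with a median difference of 0.02, and 1 gene had a more negative difference than the -1.37 of ANGPTL4, ANKRD37 at -1.46 (named after its values were seen). BNIP3 stood at -0.46 and ADM at -0.69. Without hypoxia 2 and 3 the response with TEPA was smaller in 21 of the 39, and 2 were more negative than ANGPTL4 at -0.56. With correction for GC content and length the difference was negative in 24 of the 39, and 15 were more negative than ANGPTL4 at -0.34. With hypoxia 2 and 3 also left out it was negative in 31, and 17 were more negative than ANGPTL4 at -0.17. These are counts of values, and no test was made over the list. Over all genes the difference between responses was called in 38.8%, in 0% without hypoxia 2 and 3, and in 20.3% with correction for GC content and length.

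**Figure D3:**
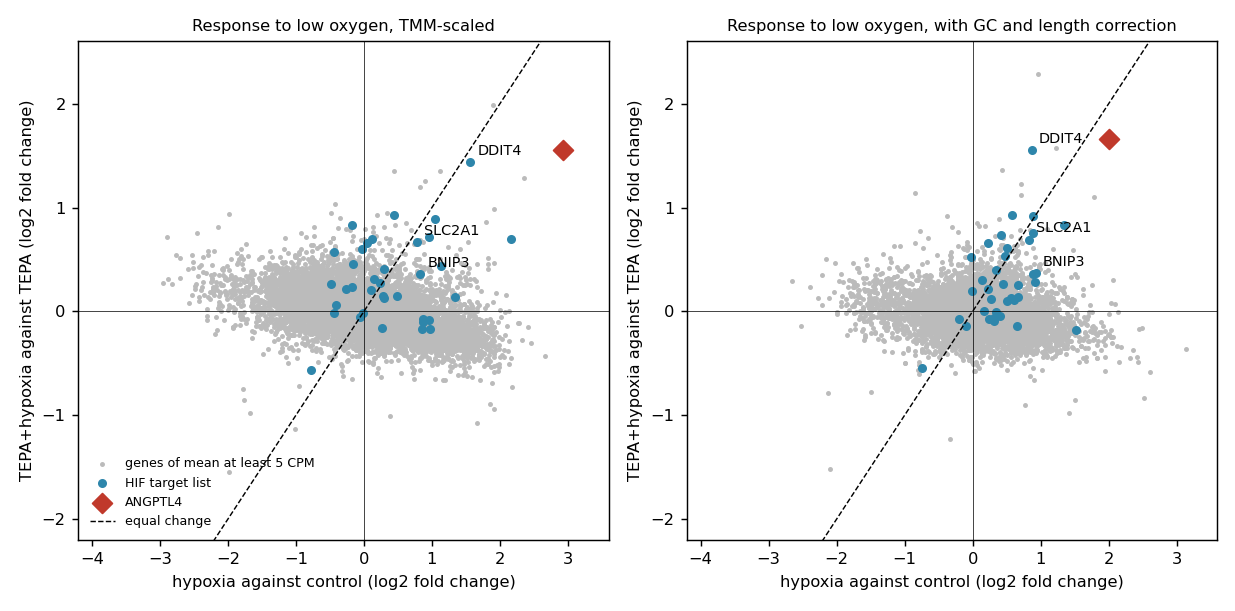
Log2 fold change in TEPA+hypoxia against TEPA (vertical) and in hypoxia against control (horizontal) for genes with a mean of at least 5 CPM (grey), the HIF target list (blue) and ANGPTL4 (red diamond), uncorrected on the left and corrected for GC content and transcript length on the right. The dashed line marks equal change. ANGPTL4 lies at 2.93 and 1.55 on the left and at 2.0 and 1.66 on the right, nearer to the line.

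Transcripts of the HIF alpha subunits did not move with ANGPTL4. HIF1A had 87.6 to 126 CPM in TEPA+hypoxia, against 99.1 to 117 CPM in TEPA (log2 -0.08, adjusted p = 0.981). It had 8.08 to 56.7 CPM in hypoxia, against 99.3 to 117 CPM in control, and fell by 2.06 on the log2 scale (adjusted p = 0.00854). EPAS1, which encodes HIF-2 alpha, had 214 to 285 CPM in TEPA+hypoxia, against 318 to 371 CPM in TEPA (-0.50, adjusted p = 0.5), and 105 to 177 CPM in hypoxia, against 270 to 310 CPM in control (-1.11, adjusted p = 0.00601). HIF alpha activity is known to be set mainly by protein stability, which these data do not measure. Of 11 tested HIF pathway components, 0 were called in TEPA+hypoxia against TEPA (0.0969% of all genes), and 2 were called higher and 6 lower in hypoxia against control (29.4% and 27.8% of all genes).

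No list tied to other known regulators of ANGPTL4 had a member called in TEPA+hypoxia against TEPA. With 0.0969% of all genes called there, a list of this size would be at or near 0, so nothing is read from those counts. The counts in hypoxia against control that follow stand beside 29.4% of all genes called higher and 27.8% lower. They and the p-values beside them come from the main fit, while a fit of only hypoxia and control called 0 genes. PPARD, the PPAR receptor with enough counts to be tested, averaged 49.1 CPM in TEPA+hypoxia, 49.7 in hypoxia, 48.3 in TEPA and 49.9 in control, while PPARA had 65 counts and PPARG 3 over all libraries. Of 7 tested PPAR receptors and partners, 1 was called higher and 3 lower in hypoxia against control. Of 20 tested PPAR target genes, 4 were called higher and 7 lower. The fatty acid oxidation gene CPT2 was at 0.37 with TEPA (adjusted p = 0.686) and 0.09 without (adjusted p = 0.678). PDK4 and PLIN2, both well-known PPAR targets, had 18 and 13 counts in all and were not tested. Among 12 tested glucocorticoid receptor and target genes 5 were called higher and 4 lower in hypoxia against control. The glucocorticoid-induced leucine zipper gene TSC22D3 had 76.1, 78.9 and 67.8 CPM in TEPA+hypoxia, against 51.5, 50.9 and 49.5 CPM in TEPA (0.55, adjusted p = 0.166, and 0.57 without hypoxia 2 and 3). In TEPA+hypoxia against TEPA, 3 of the glucocorticoid list were called higher without those libraries (1.32% of all genes) and 2 with correction for GC content and length (0.191%). Among 15 tested TGF beta genes 3 were called higher and 8 lower, with SMAD7, an inhibitor of that pathway, at -0.46 with TEPA (adjusted p = 0.26) and -0.47 without (adjusted p = 0.00935). Among 14 tested copper-binding and metallothionein genes 9 were called higher and 2 lower. MT2A, a metallothionein that binds zinc and copper, had 520, 487 and 566 CPM in TEPA+hypoxia and 674, 688 and 613 CPM in TEPA (-0.33, adjusted p = 0.841). Its 1045, 4055 and 2767 CPM in hypoxia, against 660 to 860 CPM in control, gave a log2 fold change of 1.78 (adjusted p = 0.00601). The fit that leaves out hypoxia 2 and 3, and so keeps only hypoxia 1, gave 0.45.

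ANGPTL2 and ANGPT1 were the only other genes of its family with enough counts to be tested, and neither was called under low oxygen with or without TEPA. ANGPTL2 averaged 12.2 CPM in TEPA+hypoxia, 11.3 in hypoxia, 12.6 in TEPA and 14.5 in control, with -0.04 with TEPA (adjusted p = 0.966) and -0.36 without (adjusted p = 0.104). ANGPT1, a ligand of the endothelial receptor TIE2, averaged 5.68, 3.63, 4.52 and 5.06 CPM in the same order, with 0.33 (adjusted p = 0.802) and -0.47 (adjusted p = 0.121). ANGPTL1 and ANGPTL7 were listed at 0 in every library, and ANGPTL5, ANGPTL6, ANGPT2 and ANGPT4 had 13, 78, 19 and 2 counts over all libraries, so none of these 6 was tested.

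Of the lipases that the ANGPTL4 protein is known to act on, LIPG had enough counts to be tested. LPL and GPIHBP1, the lipase and its endothelial anchor, and the hepatic lipase gene LIPC were listed at 0 counts. Endothelial lipase, LIPG, had 48.7, 47.4 and 54.0 CPM in TEPA+hypoxia, against 50.9, 51.3 and 49.0 CPM in TEPA (-0.01, adjusted p = 0.993). It had 39.5, 21.5 and 27.7 CPM in hypoxia, against 47.8 to 52.8 CPM in control (-0.77, adjusted p = 0.00635), a difference that correction for GC content and length turned to 0.03. FURIN, a proprotein convertase known to cleave ANGPTL4, was at -0.25 with TEPA (adjusted p = 0.613) and fell by 0.30 without (adjusted p = 0.0355). Of 11 tested genes of the lipoprotein lipase axis, 3 were called higher and 6 lower in hypoxia against control, and these and the next counts stand beside the same 29.4% and 27.8% of all genes. Of 13 tested genes of cell surface partners the counts were 2 and 7, with SDC4, a heparan sulphate proteoglycan, at 0.05 (adjusted p = 0.627) and the VEGF receptor gene KDR at -1.29 (adjusted p = 0.00601). Of 10 tested lipid droplet genes 3 were called higher and 1 lower. The triglyceride lipase gene PNPLA2 had 142, 133 and 137 CPM in TEPA+hypoxia, against 176, 185 and 170 CPM in TEPA (-0.37, adjusted p = 0.781), and 190, 425 and 374 CPM in hypoxia, against 149 to 182 CPM in control. Its rise of 1.01 (adjusted p = 0.00619) was at 0.26 (adjusted p = 0.0594) after correction for GC content and length and at -0.04 with hypoxia 2 and 3 also left out. No gene of these 3 lists was called in TEPA+hypoxia against TEPA (0.0969% of all genes). Outside the HIF targets, 74 of 110 tested list members were called in hypoxia against control in either direction (57.2% of all genes), and 6 of 112 without hypoxia 2 and 3 (0.513%). HIF1A, EPAS1 and TSC22D3 were still called there, while LIPG, FURIN, KDR, PNPLA2, SMAD7 and MT2A were not.

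No neighbour of ANGPTL4 was called in the comparison with TEPA. GENCODE 29 places 13 other genes within 100 kb, 9 of them in the count table and 8 tested, and 0 were called in TEPA+hypoxia against TEPA. The nearest is RAB11B-AS1, an antisense RNA on the minus strand from 8374373 to 8390685, which shares the last base of ANGPTL4. It had only 381 counts over all libraries and averaged 1.40 CPM in TEPA+hypoxia and 0.768 CPM in TEPA (0.95 ± 0.58, adjusted p = 0.783). The strand setting of the counting is not given in the sources used here, so reads of the pair near that end cannot be told apart. KANK3, 20027 bp upstream, was at 0.41 ± 0.35 with TEPA (adjusted p = 0.819) and the small GTPase gene RAB11B, 15608 bp downstream, at -0.15 ± 0.17 (adjusted p = 0.851). CD320, NDUFA7, RPS28, MARCH2 and HNRNPM lay between -0.32 and -0.09.

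In hypoxia against control the tested neighbours had positive fold changes in the main fit, smaller than that of ANGPTL4. RPS28 stood at 0.69 there (adjusted p = 0.0614). It stood at -0.31 without hypoxia 2 and 3, at -0.02 with correction for GC content and length, and at -0.53 with both. All tested neighbours but RPS28 were called higher, 7 of 8 beside 29.4% of all genes, from 0.53 for HNRNPM to 1.82 for KANK3. The fit of only hypoxia and control called 0 genes. Without hypoxia 2 and 3, where hypoxia 1 stands alone, KANK3 was at 0.80, CD320 at 0.41, RAB11B-AS1 at 0.55 and ANGPTL4 at 2.13. With correction for GC content and length 4 of the 8 were called higher, beside 26.9% of all genes. KANK3 then stood at 1.06, CD320 at 0.12 and RAB11B at -0.06, and ANGPTL4 at 2.0.

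**Figure D4:**
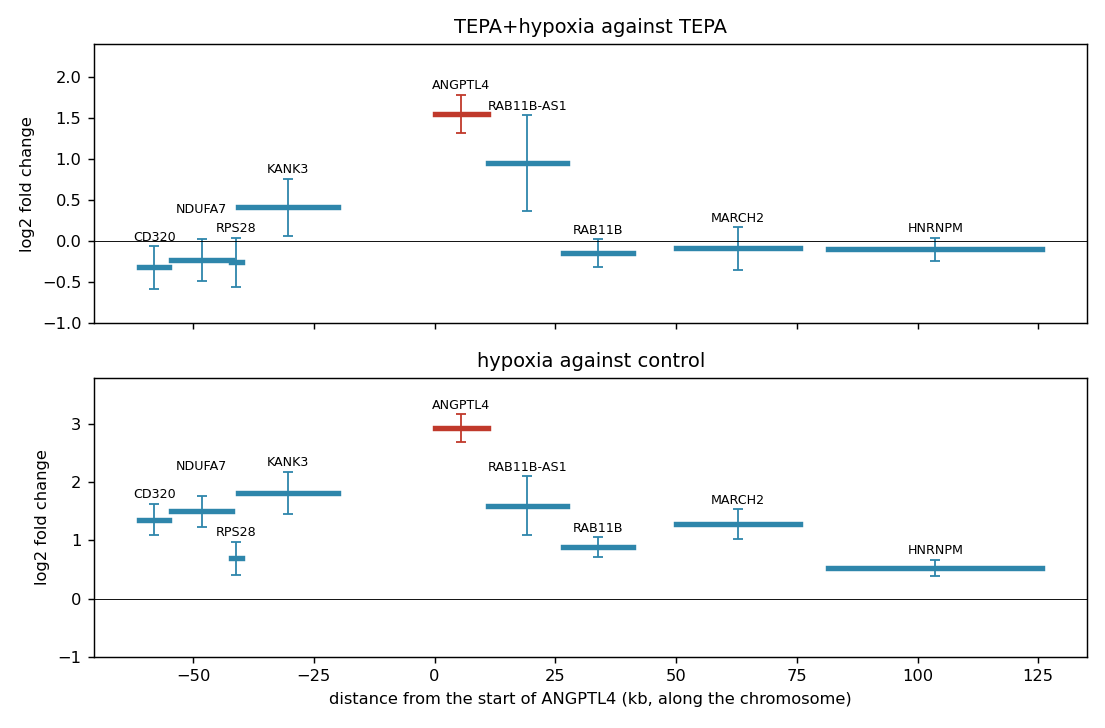
Log2 fold change of the tested genes within 100 kb of ANGPTL4, in TEPA+hypoxia against TEPA (top) and hypoxia against control (bottom), against distance in kb from its start. Horizontal lines span each gene and vertical bars give the SE of the fit. ANGPTL4 (red) stands at 1.55 on top, and all its neighbours except RAB11B-AS1 lie at 0.41 or below.

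The genes with the profile most like that of ANGPTL4 depended on hypoxia 2 and 3. Likeness was Pearson's correlation of log2 CPM among genes of at least 5 CPM, and it describes libraries that share scaling and treatment. Over all 12 libraries the 8 closest were LOC284454 (r = 0.986), BANP (0.972), BNIP3 (0.970), LINC01116 (0.970), PARS2 (0.968), RWDD2B (0.966), ADM (0.963) and FOXD2-AS1 (0.961). Over the 10 libraries without hypoxia 2 and 3 they were SLC2A1 (0.981), LOC284454 (0.966), RSRP1 (0.961), ENO2 (0.960), BBIP1 (0.953), TSC22D3 (0.951), VMP1 (0.949) and JUN (0.948). LOC284454 was the 1 gene in both sets. Of the 15 genes in either set 4 are on the HIF target list, BNIP3, ADM, SLC2A1 and ENO2, while that list makes up 0.356% of the genes compared. ANGPTL4 was chosen for its rise under low oxygen, so other genes that rise there rank high by construction. Nothing is read from that share.

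LOC284454 followed the level order of ANGPTL4 at a lower count, with 29.1, 36.4 and 25.2 CPM in TEPA+hypoxia and 35.5, 70.7 and 68.7 CPM in hypoxia. It had 13.8, 15.3 and 16.4 CPM in TEPA and 15.3, 14.6 and 16.2 CPM in control. Like ANGPTL4, it had no overlap between low and normal oxygen, and it was higher in hypoxia 2 and 3 than in hypoxia 1. Its log2 fold change in TEPA+hypoxia against TEPA was 0.99 ± 0.23, given with no test because the gene was picked on these libraries. BNIP3, ADM, SLC2A1, ENO2 and TSC22D3 were picked by likeness too. Their p-values above were given for them as list members, and nothing is read from those for their likeness to ANGPTL4. SLC2A1 had 111, 122 and 109 CPM in TEPA+hypoxia, 132, 98.2 and 119 in hypoxia, 71.6, 73.3 and 69.6 in TEPA and 63.1, 65.8 and 75.1 in control. Its low-oxygen groups overlapped, unlike those of ANGPTL4, and its hypoxia 2 value was the lowest of the low-oxygen libraries. RSRP1, which encodes an arginine- and serine-rich protein, was higher in TEPA+hypoxia than in hypoxia, at means of 56.0 and 44.6 CPM, the opposite of the order for ANGPTL4.

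**Figure D5:**
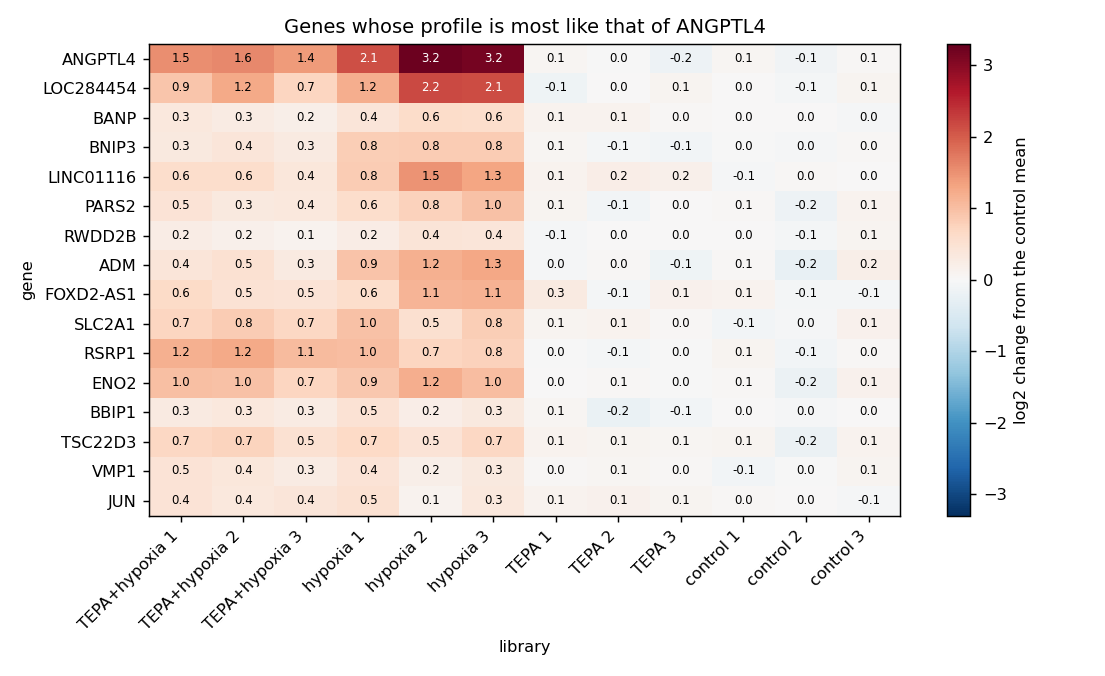
Log2 change from the control mean in each library for ANGPTL4 and the 15 genes whose profile was most like it, the first 8 below ANGPTL4 over all 12 libraries and the others over the 10 without hypoxia 2 and 3. Red is higher and blue lower, with the value in each cell. ANGPTL4 reaches 3.24 in hypoxia 2, and the genes of the lower rows are no higher in hypoxia 2 and 3 than in hypoxia 1, apart from ENO2 and TSC22D3.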

How the data were processed

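The deposited table holds raw counts, whole numbers of reads per gene symbol and library, made by the authors from poly(A) RNA libraries with a directional kit, per the labels' protocols. HISAT2 2.1.0, GRCh38 and DESeq are named in the submitters' processing notes. The sources used here give no counter, annotation or strand setting, and the counts were used as deposited. The tools were edgeR 4.0.16 and limma 3.58.1 (R 4.3.3). filterByExpr by group left 14447 genes holding 99.9% of counts. Libraries were scaled by TMM, 1 fit over all 12 had a mean for each group, and genes were tested by the two-sided quasi-likelihood F-test with Benjamini-Hochberg adjustment over all genes (called under 0.05). For ANGPTL4 no p is given, since its values in the 4 groups were part of its choice. The gene, the lists and the tests were chosen with earlier results of these data known.

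Genes named by choice are ANGPTL4, its family, its neighbours within 100 kb, HIF1A, EPAS1, VEGFA, MT2A, HILPDA, the PPAR genes, LPL, PLIN2 and PDK4. Named by their values are the 8 most like ANGPTL4 over 12 and over 10 libraries and the 5 largest by fold and by gain in CPM in each low-oxygen comparison. From each list, up to 6 and 4 members with the smallest p are named. Alternatives were RLE, upper quartile and total scaling, no filter, 1 CPM in 3 libraries, DESeq2 1.42.0, limma-voom, a block for the replicate number, a fit of only the compared groups, each library left out, hypoxia 2 and 3 left out, and a correction for GC content and length of the longest coding GENCODE 29 transcript (a spline of 4 degrees of freedom for each, fitted per library over 13077 genes, 90.5% of those tested), also with the block. Correction for GC content alone, and the full correction without hypoxia 2 and 3, were chosen after seeing the data. The test was checked on simulated counts with a smaller spread between libraries than these data (common dispersion 0.0339). They had no trend with GC content and no libraries like hypoxia 2 and 3. That check does not show how the test behaves on the real counts. Floors of 3 counts cover counting error only. Some genes are not reported here.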

Additional observations from a re-analysis of the deposited data

Results flagged for a closer look

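The difference between the responses with and without TEPA was tested here for the 16 genes that were named whatever their values, the chromosomal neighbours of ANGPTL4 and the genes listed by name. It was not read for ANGPTL4 or for genes picked only by fold change, small p or likeness, since such choices used the same values. Of the 16, MT2A, EPAS1, HILPDA, ANGPTL2 and ANGPT1 were named by choice but also met the small p rule. In 8 of the 16 the response to low oxygen differed (edgeR interaction test, adjusted p 0.0236 to 0.0464 over all genes), beside 38.8% of all genes, so the count is not read as a result about these genes. None of the 8 passed without hypoxia 2 and 3 (0 genes in the whole table, where 4117 had an unadjusted p under 0.05 and the smallest adjusted p was 0.0643). With correction for GC content and length 2 of them passed, CD320 and NDUFA7, beside 20.3% of all genes.

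The response with TEPA was smaller in 7 of the 8. The log2 difference was -1.41 for KANK3, -1.68 for CD320, -1.73 for NDUFA7, -1.04 for RAB11B, -1.37 for MARCH2, -0.63 for HNRNPM and -2.11 for MT2A. It was 1.98 for HIF1A, which stood at -0.08 with TEPA and at -2.06 without it. With correction for GC content and length the difference for RAB11B stood at 0.02.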

How the results depend on the processing

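ANGPTL4 in TEPA+hypoxia against TEPA stood at 1.54 to 1.66 in 14 other settings. The replicate number as a block gave 1.55. Of 18 pairs of libraries with the same number, 6 correlated over 0.1 in their deviations from group means (range -0.36 to 0.319). With 3 libraries in a group this cannot settle whether same-number libraries were paired, and the labels do not say. Leaving out 1 library gave 1.49 to 1.60 there, -0.09 to 0.03 in TEPA against control, 2.73 to 3.18 in hypoxia against control, -1.66 to -1.21 in TEPA+hypoxia against hypoxia and -1.62 to -1.17 for the difference between responses. Without hypoxia 2 and 3, with GC and length correction, with that and the block, with GC correction alone, and with the full correction without those libraries, hypoxia against control gave 2.13, 2.0, 2.0, 2.25 and 1.83. In the same order, TEPA+hypoxia against hypoxia gave -0.60, -0.43, -0.43, -0.71 and -0.26, and the difference between responses -0.56, -0.34, -0.34, -0.62 and -0.17, with -1.03 by library totals alone. Genes called in TEPA+hypoxia against TEPA were 14, and 140 by DESeq2, 9 with the block, 329 without hypoxia 2 and 3, 355 with only the groups compared, 29 with the correction, 7 with the block too, 1159 with the correction and without those libraries, and 0 to 254 without 1 library (0 without TEPA 2, with 706 at an unadjusted p under 0.05). In TEPA against control they were 6 by DESeq2, 4 without hypoxia 2 and 3, 7 with only the groups compared, 17 with the correction and without those libraries, and 0 to 5 without 1 library. In hypoxia against control they were 8270, and 78 without hypoxia 2 and 3, 0 with only the groups compared by edgeR (6939 at an unadjusted p under 0.05), 5282 with correction and block, 284 with the correction and without those libraries, and 5114 to 10623 without 1 library. HIF targets called with TEPA were 1 by RLE or with no filter, 7 by DESeq2, 0 with the block, 13 without hypoxia 2 and 3 or with only the groups compared, 5 with the correction, 18 with the correction and without those libraries, and 0 to 13 without 1 library. Members of the other 10 lists were 3, 7, 11, 2 and 22 by DESeq2, without hypoxia 2 and 3, with only the groups compared, with the correction and with both, and 0 to 6 without 1 library. In hypoxia against control, HIF targets called were 10 without hypoxia 2 and 3, 0 with only the groups compared, and 15 to 26 without 1 library; members of the other lists were 6, 0, 7 with the correction and without those libraries, and 51 to 87. Values that turned sign in hypoxia against control with the correction, with the block too, or without hypoxia 2 and 3 too were 0.03, 0.04 and 0.04 for LIPG, -0.33 and -0.34 for PLIN3, -0.04 for PNPLA2 (last setting) and -0.06 and -0.06 for RAB11B. The cause of these changes was not tested. Without hypoxia 2 and 3 only hypoxia 1 is left in its group, so counts called there in hypoxia against control rest on the spread of the other groups.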
